A study of Mus musculus with 72 samples.

Results

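Of 72 mouse adipose tissue arrays, 5 carried a strong signal of the cell cycle inhibitor gene Cdkn2a, and these 5 are described here against the 43 arrays that carried a strong signal of the brown adipocyte gene Ucp1. The members were chosen by measured values: after background correction and quantile normalization to the log2 scale, an array was called Cdkn2a-high when Cdkn2a was above 8, and Ucp1-high when Ucp1 was above 11 and Cdkn2a below 8. The remaining 24 arrays fell on neither side. By their labels, the Cdkn2a-high arrays were brown adipose tissue (BAT) of DAKO mice at 7 months (replicates 3 and 4 of 4), of a DAKO mouse at 12 months (replicate 1 of 4) and of HSLAKO mice at 12 months (replicates 1 and 2 of 4). By the study's design, DAKO mice lacked both ATGL (gene Pnpla2) and HSL (gene Lipe) in adipose tissue, and ATGLAKO and HSLAKO mice lacked only ATGL or only HSL. All lines were on a C57BL/6J background and carried Cre under the Fabp4 promoter, also the controls, which had the transgene alone. Recombination therefore depends on activity of an adipose promoter, and mice had been fasted for some hours before the tissue was taken. The Ucp1-high arrays were labelled BAT in 33 cases and white adipose tissue (WAT) in 10. By the study's methods, BAT was interscapular and WAT perigonadal. At 3 months they were all 5 control, all 5 ATGLAKO, all 4 HSLAKO and all 5 DAKO arrays of BAT, with 2 of 3 control, 1 of 5 ATGLAKO, 4 of 4 HSLAKO and 3 of 4 DAKO arrays of WAT. At later ages they were 2 of 4 ATGLAKO, 2 of 4 HSLAKO and 2 of 4 DAKO BAT arrays at 7 months, 3 of 4 ATGLAKO, 1 of 4 HSLAKO and 1 of 4 DAKO BAT arrays at 12 months and 3 of 5 DAKO BAT arrays at 14 months. The sample names gave 5 different mouse numbers to the 5 Cdkn2a-high arrays, and 36 to the 43 Ucp1-high arrays, of which 7 numbers stood on 2 arrays. Numbers that differed only by a leading letter A were counted as different, so further Ucp1-high arrays may share a mouse.

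Cdkn2a encodes 2 proteins from separate first exons, p16INK4a, which blocks the cyclin D kinases that inactivate the retinoblastoma protein, and p19ARF, which frees p53 from its ligase MDM2. Its transcript is hardly present in most young tissues and accumulates in senescent cells and in tumors whose RB or p53 pathway is disabled. Brown adipocytes burn fatty acids in mitochondria that UCP1 uncouples, while ATGL and HSL release these fatty acids from triglyceride in the lipid droplet. Liposarcomas are malignant tumors with features of fat, and range from well differentiated to forms with few adipocyte traits.

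The rule separated the arrays by a wide margin. The log2 signal of Cdkn2a (chromosome 4, Entrez Gene 12578) was 10.64 and 9.44 on the HSLAKO arrays at 12 months, 10.44 and 9.71 on the DAKO arrays at 7 months and 9.30 on the DAKO array at 12 months. On the 43 Ucp1-high arrays its log2 signal ran from 4.18 to 4.57 with a median of 4.29, and on 0 of them was it above background, a detection p under 0.05. The 5 values thus lay in a band far above all others, and Cdkn2a was at least 34.7-fold higher, a bound taken from the weakest signal above background on each Ucp1-high array. The array just outside the threshold was DAKO BAT at 14 months, replicate 4, at a log2 signal of 5.72, and the lowest member was at 9.30. A second probe of Cdkn2a, which the rule did not use, had a log2 signal of 8.56 to 9.69 on the 5 arrays and of at most 4.92 on the other arrays. Under 4 other ways of scaling the same 5 arrays had the 5 highest Cdkn2a signals. The log2 signal of Ucp1 (chromosome 8, Entrez Gene 22227) was at most 4.81 on the Cdkn2a-high arrays, and the lowest Ucp1-high array stood at 11.35, with the highest array under that threshold at 8.25.

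**Figure D1:**
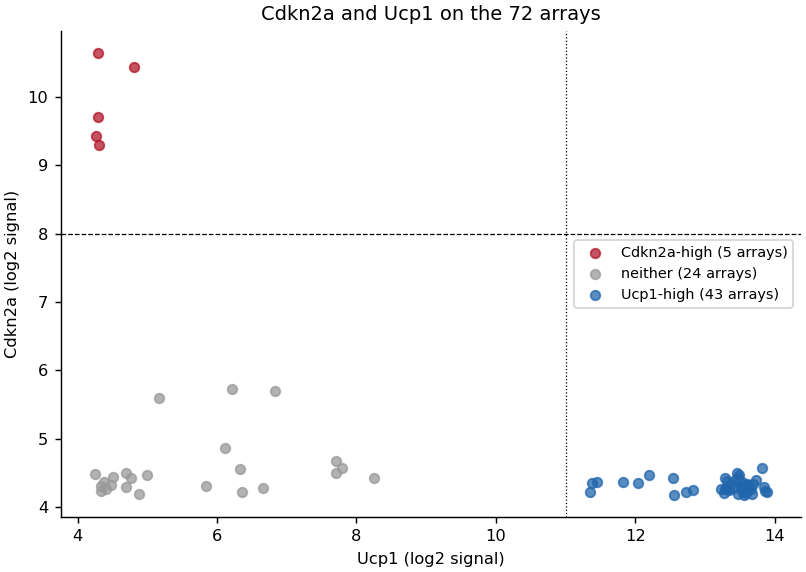
Each point is 1 array, with the log2 signal of Ucp1 on the horizontal axis and of Cdkn2a on the vertical axis. Dashed and dotted lines mark the thresholds of 8 for Cdkn2a and 11 for Ucp1. The 5 Cdkn2a-high arrays sit between 9.30 and 10.64, and all other arrays at or below 5.72.

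Age and genotype did not by themselves pick out the Cdkn2a-high arrays. In each of the 3 labelled groups that held them, other replicates were Ucp1-high or on neither side. Among the 4 DAKO arrays at 7 months, Cdkn2a had a log2 signal of 10.44 and 9.71 on replicates 3 and 4, and of 4.30 and 4.37 on replicates 1 and 2, where Ucp1 was at 13.85 and 13.53. None of the 5 DAKO arrays labelled 14 months, the oldest age, was Cdkn2a-high: the log2 signal of Cdkn2a was 4.19, 4.18 and 4.30 on replicates 1 to 3, which were Ucp1-high, and 5.72 and 5.69 on replicates 4 and 5. No array labelled control or ATGLAKO was Cdkn2a-high.
The deleted genes did not follow the DAKO label on every array, and Ucp1 did not follow the tissue label. Genotype, age and tissue are therefore given here as labelled, and their match to the arrays is not settled. In BAT at 3 months, the log2 signal of Pnpla2 was 14.04, 13.93 and 13.85 on DAKO replicates 1 to 3 and 10.02 and 11.03 on replicates 4 and 5, against 12.91 to 13.31 on the 5 control arrays. Lipe had log2 signals of 9.18 to 9.44 on DAKO replicates 1 to 3 at 14 months, close to the 9.31 to 9.95 of control BAT at 3 months. Where the probes lie relative to the deleted parts of both genes was not examined. Ucp1 was at 11.35 to 13.60 on the 10 Ucp1-high arrays labelled WAT and at 4.24 to 6.12 on the other 6 labelled WAT. On control BAT at 7 and 12 months it was at 4.33 to 8.25, so none of these arrays was Ucp1-high. Their mean log2 signal of 14 mesothelial genes was 6.41 to 7.815, against 4.788 to 5.885 on Ucp1-high arrays.

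The 5 arrays resembled each other across the genome more than they resembled the Ucp1-high arrays. Over 18083 probes the correlation of log2 signals was 0.961 to 0.977 in the 10 pairs of Cdkn2a-high arrays and 0.758 to 0.916 in the 215 pairs of a Cdkn2a-high with a Ucp1-high array. Within the Ucp1-high arrays it was 0.851 to 0.993 (median 0.958), and between Cdkn2a-high arrays and those on neither side 0.826 to 0.932. These are descriptions, since all probes entered the normalization and Cdkn2a chose the arrays. Array quality overlapped: the median raw signal was 110.5 to 118.1 on Cdkn2a-high and 96.7 to 115.0 on Ucp1-high arrays, and the share of probes above background was 49.7 to 51.6% on Cdkn2a-high and 44.8 to 52.0% on Ucp1-high arrays.

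Because the arrays were chosen by their values, the contrast of Cdkn2a-high with Ucp1-high arrays was described without a test. A gene was counted as higher or lower without overlap when all 5 Cdkn2a-high arrays lay above, or below, all 43 Ucp1-high arrays and the means differed by more than 1.5 on the log2 scale. Of 12265 genes, 562 were higher (4.58%) and 596 lower (4.86%), and the median difference over all genes was 0.005 on the log2 scale. With arrays scaled to a common median in place of quantile normalization, 711 were higher and 471 lower. The counts were 201 higher and 299 lower on the authors' normalized values, and 279 and 380 with no background correction. Set against all 67 other arrays, 289 genes were higher (2.36%) and 197 lower (1.61%). In bulk tissue, fewer cells of a type and less RNA per cell cannot be told apart, which holds for every level given here.

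Some genes of the p53 and RB pathway separated the arrays. Against 4.58% higher and 4.86% lower over all genes, 4 of 29 measured were higher and 2 lower without overlap. The median difference of the list was 0.18 on the log2 scale, and 1 of the 4 is Cdkn2a, which the rule placed there. On the authors' normalized values 2 were higher and 0 lower. Of the other measured inhibitor genes of cyclin-dependent kinases, Cdkn2b was higher, and Cdkn2c, Cdkn2d, Cdkn1a, Cdkn1b and Cdkn1c were not apart. Cdkn2b, which encodes the neighbouring inhibitor p15INK4b, had a log2 signal of 10.28 and 10.38 on the HSLAKO arrays, 10.52 and 9.43 on the DAKO arrays at 7 months and 9.51 on the DAKO array at 12 months, against 5.68 to 7.27 (median 6.54) on Ucp1-high arrays. All 5 were above every one of the 67 other arrays, whose highest was 8.07. E2f1, an activator of S phase genes that RB restrains, had a log2 signal of 8.61 to 8.88 on Cdkn2a-high arrays, the narrowest band of the higher genes in this list, and of 4.57 to 7.92 on Ucp1-high arrays. Ccnd2, which encodes cyclin D2, had log2 signals of 8.25 to 10.36 on Cdkn2a-high arrays and 5.43 to 8.24 on Ucp1-high arrays, so that its groups almost touched. The 2 lower genes are p53 targets, the cyclin G1 gene Ccng1 (log2 signal 8.63 to 8.91 against 9.76 to 11.43 on Ucp1-high arrays) and the death receptor gene Fas (6.35 to 6.98 against 7.98 to 9.16 on Ucp1-high arrays), named after their values were seen. Mdm2, the ligase gene amplified in human liposarcoma, did not separate the arrays, with a log2 signal of 9.40 to 10.02 on Cdkn2a-high and 9.13 to 10.19 on Ucp1-high arrays.

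The 2 Cdkn2a promoters are shown because the signal of this gene defines the arrays. They were taken from RefSeq (GRCm38.p6, minus strand, 250 bases before to 50 after each transcript start), and the probes could not be assigned to 1 of the 2 transcripts. Capitals mark CCAAT, the cell cycle element TTTGAA, or the E2F sites TTTCCCGC or TTTGGCGC, on either strand. The upstream promoter (chr4:89294570-89294869) holds 1 E2F match, and the other (chr4:89282143-89282442) holds 1 CCAAT, in the 50 bases after the transcript start.
Cdkn2a upstream: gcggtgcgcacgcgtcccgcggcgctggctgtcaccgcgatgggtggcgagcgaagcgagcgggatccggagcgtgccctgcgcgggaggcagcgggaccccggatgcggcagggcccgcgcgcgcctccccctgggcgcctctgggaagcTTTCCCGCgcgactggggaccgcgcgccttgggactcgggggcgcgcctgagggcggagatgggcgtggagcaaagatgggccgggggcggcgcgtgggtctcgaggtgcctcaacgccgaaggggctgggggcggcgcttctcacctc
Cdkn2a downstream: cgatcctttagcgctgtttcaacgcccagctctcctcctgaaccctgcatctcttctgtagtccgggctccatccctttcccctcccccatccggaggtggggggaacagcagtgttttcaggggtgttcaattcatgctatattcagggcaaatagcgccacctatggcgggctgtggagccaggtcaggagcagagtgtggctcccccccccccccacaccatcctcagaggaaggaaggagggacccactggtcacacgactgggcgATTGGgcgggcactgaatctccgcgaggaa

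Genes of cell division were higher as a group. Of 28 measured proliferation genes, 23 were higher without overlap and 0 lower, and all 28 had the higher mean, with a median difference of 2.36 on the log2 scale against 0.005 over all genes. Top2a, the topoisomerase that untangles chromosomes before mitosis, had a log2 signal of 9.29 and 8.00 on the HSLAKO arrays, 8.41 and 9.11 on the DAKO arrays at 7 months and 9.06 on the DAKO array at 12 months, against 4.24 to 6.72 (median 5.29) on Ucp1-high arrays. HSLAKO replicate 2 was the lowest of the 5, and it also had the lowest mean over the 28 genes, 7.56 against 8.06 to 8.24 on the other four. Cdc20, the activator of the anaphase-promoting complex, was 16.3-fold higher (log2 signal 9.06 to 10.38 on Cdkn2a-high and 4.46 to 7.52 on Ucp1-high arrays). Prc1, which bundles the microtubules of the spindle midzone, was 16.2-fold higher, and Birc5, which encodes survivin of the chromosomal passenger complex, 11.7-fold higher. On the Ucp1-high arrays the mean over the 28 genes ran from 5.10 to 6.82, below every Cdkn2a-high array, and against all 67 other arrays 15 of the 28 genes were higher without overlap. The count of 23 depended on the scaling: it was 7 on the authors' normalized values (median 1.01), 13 with no background correction (1.43) and 15 with an offset of 50 (1.81). Top2a, Cdc20, Prc1 and Birc5 were above background on 29, 33, 36 and 35 of the 43 Ucp1-high arrays, so that their folds rest partly on signals at background.

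Promoters of the genes in this list shared sequence elements. The shares were taken over all measured members of a list, apart or not, and so say nothing about these arrays. RefSeq promoters were found for 24 of the 28 measured proliferation genes (26 promoters). CCAAT on either strand lay in 84.6% of the 26, against 37.4% of all 32851 promoters of the same length, and an E2F match in 19.2% against 1.6%. TTTGAA lay in a promoter of 12 of the 24 genes and in 17.9% of all promoters. For the brown adipocyte list, where 17 of 25 genes had a promoter (19 promoters), the shares were 31.6% for CCAAT, 5.3% for TTTGAA and 0% for E2F. TCAAGGTCA, the binding letters of the ERR receptors, was found in 0% of either set and 0.4% of all promoters. A match is a description of letters in this window and was not tested as a site. The promoters of Top2a (chr11:99024140-99024439, minus strand), with 6 CCAAT and 2 TTTGAA, and of Cdc20 (chr4:118437294-118437593, minus strand), with 2 and 1, are shown with these letters in capitals.
Top2a: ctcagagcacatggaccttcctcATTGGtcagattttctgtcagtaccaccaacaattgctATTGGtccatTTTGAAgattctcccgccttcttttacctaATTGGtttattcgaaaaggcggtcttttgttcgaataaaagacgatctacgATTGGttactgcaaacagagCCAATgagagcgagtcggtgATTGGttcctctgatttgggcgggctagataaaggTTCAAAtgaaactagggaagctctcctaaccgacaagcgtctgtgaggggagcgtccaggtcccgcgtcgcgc
Cdc20: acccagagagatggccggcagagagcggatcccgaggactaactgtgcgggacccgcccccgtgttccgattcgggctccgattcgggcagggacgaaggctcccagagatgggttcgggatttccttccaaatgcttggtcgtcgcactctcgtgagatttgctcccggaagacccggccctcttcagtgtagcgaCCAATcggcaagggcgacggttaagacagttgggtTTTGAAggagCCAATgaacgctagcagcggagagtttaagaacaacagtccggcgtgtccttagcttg

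The genes with the largest positive differences included several of secreted and matrix proteins. Esm1, a proteoglycan known from endothelial tip cells, had log2 signals of 12.09 and 11.44 on the HSLAKO arrays, 10.26 and 11.59 on the DAKO arrays at 7 months and 10.72 on the DAKO array at 12 months, and of 4.32 to 5.99 (median 4.63) on Ucp1-high arrays. It was 87.2-fold higher. Ptn, which encodes the growth factor pleiotrophin, was 60.1-fold higher, Ccn4, a matricellular WNT target, 59.3-fold, and Lrrc15, a membrane protein of activated fibroblasts, 55.1-fold. On Ucp1-high arrays, Esm1 was above background on 15 of 43, Ptn and Ccn4 on 14, Inhba on 13, Lrrc15 on 5 and C1qtnf3 on 35, so that these folds too rest partly on signals at background and give no order among these genes. Tnc, the gene of the matrix glycoprotein tenascin C, had a log2 signal of 10.69 to 12.34 on Cdkn2a-high arrays and of 4.33 to 8.48 on Ucp1-high arrays. Inhba, the activin A subunit gene, was 26.5-fold higher, and C1qtnf3, which encodes an adiponectin-related secreted protein, 32.8-fold.
Some of these genes varied strongly among the 5 arrays. Crabp1, a retinoic acid binding protein gene, had a log2 signal of 7.16 on DAKO replicate 3 at 7 months and of 10.34 to 11.56 on the other four, against 4.23 to 5.46 on Ucp1-high arrays, of which 4 of 43 were above background. Prss35, a serine protease-like gene, was on the same array at 6.40 and on the others at 9.06 to 11.16, and at least 23.3-fold higher than on Ucp1-high arrays, where it was above background on 0 of 43. Ankrd1, a nuclear target of mechanical signalling, was lowest on the DAKO array at 12 months, at 7.72, with the others between 10.09 and 11.91. Prl2c3 belongs to a family of near-identical genes, so which member was measured is uncertain. Its log2 signal was 6.76 to 11.16 on Cdkn2a-high arrays, and on Ucp1-high arrays, where it was above background on 3 of 43, 4.21 to 5.94. Among the arrays of neither side it reached 12.57, above all 5 Cdkn2a-high arrays.

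**Figure D2:**
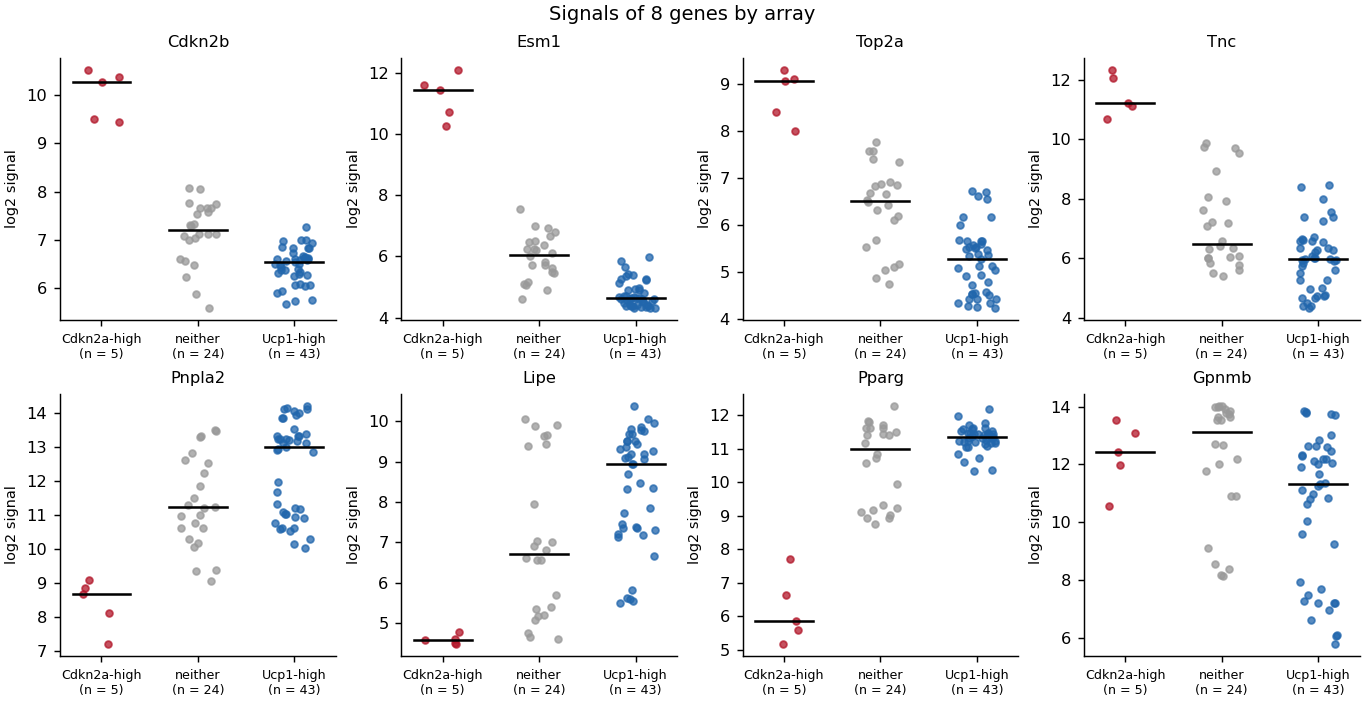
Log2 signals of 8 genes on the Cdkn2a-high arrays (n = 5), the arrays on neither side (n = 24) and the Ucp1-high arrays (n = 43), with 1 point per array and a line at the median. Cdkn2b, Esm1, Top2a and Tnc lie above and Pnpla2, Lipe and Pparg below all Ucp1-high arrays, while Gpnmb overlaps.

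In the angiogenesis list, 7 of 25 measured genes were higher and 1 lower without overlap (median difference 0.77 on the log2 scale), and of 16 endothelial markers 0 were higher and 1 lower (median -0.50). Over all genes 4.58% were higher and 4.86% lower. The endothelial genes Pecam1, Cdh5 and Tie1 were above background on all 5 arrays, with log2 signals of 7.47 to 8.74, 6.19 to 7.64 and 5.68 to 6.54, overlapping the 8.14 to 9.96, 6.98 to 8.88 and 5.77 to 7.75 of Ucp1-high arrays. On the authors' normalized values the median of the angiogenesis list was 0.20, with 6 genes higher. Ramp2, an adrenomedullin receptor subunit of endothelium, was 3.43-fold lower. Thbs2, a matrix glycoprotein that inhibits vessel growth, was 24.9-fold higher, and Tnfrsf12a, the receptor of the cytokine TWEAK, 7.66-fold higher, at a log2 signal of 10.48 to 11.10 on Cdkn2a-high arrays and 6.79 to 9.07 on Ucp1-high arrays.

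Matrix genes, their proteases and mesenchymal markers were partly apart. Of 31 measured matrix genes 11 were higher and 0 lower without overlap (median difference 1.44 on the log2 scale), and 29 had the higher mean. Col1a1, the major chain of collagen I, was 9.71-fold higher at a log2 signal of 11.14 to 12.20 against 6.48 to 10.49 on Ucp1-high arrays, and the collagen cross-linking enzyme gene Lox 8.54-fold higher. Against all 67 other arrays 2 of the 31 genes were higher without overlap, and on the authors' normalized values the median of the list was 0.88, with 8 genes higher than on Ucp1-high arrays.
Of 19 proteases and inhibitors 4 were higher and 1 lower (median 1.81, or 0.83 on the authors' normalized values). Mmp14, the membrane protease that activates MMP2, was 12.7-fold higher, Mmp9 14.1-fold and the inhibitor gene Timp1 23.7-fold. Against all other arrays 0 of the 19 genes were higher without overlap. Timp4, an inhibitor found in adipose tissue, was above background on 0 of the 5 arrays, at a log2 signal of 4.29 to 4.58 against 7.29 to 10.12 on Ucp1-high arrays, and thus at least 16.4-fold lower.
Of 24 mesenchymal genes 5 were higher and 0 lower (median 1.03), and 2 were higher on the authors' normalized values or with no background correction. Thy1, a surface marker of fibroblasts and stromal progenitors, was 8.97-fold higher, the transcription factor genes Runx1, Snai1 and Twist1 5.50-fold, 4.71-fold and 3.82-fold. Over all genes 4.58% were higher without overlap, a share that 1 gene of a short list does not clearly exceed. In the list of liposarcoma and oncofetal genes 1 of 13 measured genes was higher without overlap (median 1.21), and 0 on the authors' normalized values (0.48). That gene was Ptk7, a pseudokinase of WNT signalling, at a log2 signal of 6.11 and 5.70 on the HSLAKO arrays, 5.66 and 7.47 on the DAKO arrays at 7 months and 7.52 on the DAKO array at 12 months, against 4.22 to 5.17 on Ucp1-high arrays. Gpnmb, a glycoprotein of lipid-laden macrophages, G0s2, the inhibitor of ATGL, and Pcolce, an enhancer of collagen processing, overlapped, at 10.57 to 13.52, 5.32 to 6.79 and 10.13 to 11.11 on Cdkn2a-high arrays and 5.81 to 13.83, 5.80 to 11.37 and 7.17 to 11.19 on Ucp1-high arrays.

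**Figure D3:**
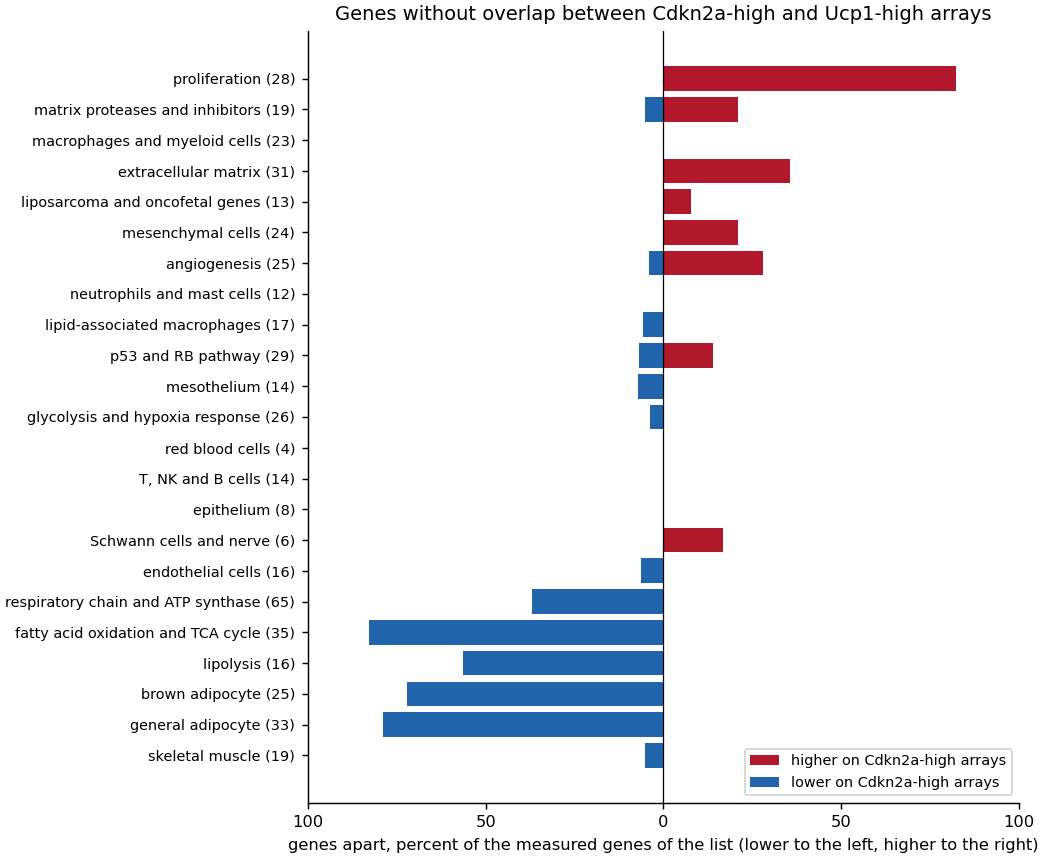
For each gene list, with its number of measured genes in parentheses, bars give the percent of genes that were higher (right) or lower (left) on all 5 Cdkn2a-high arrays than on all 43 Ucp1-high arrays, with means over 1.5 apart on the log2 scale. Lists are ordered by their median difference, from proliferation at the top to the adipocyte and muscle lists at the bottom. Over all genes 4.58% were higher and 4.86% lower.

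Most adipocyte genes were lower. Of 25 measured brown adipocyte genes 18 were lower and 0 higher without overlap (median difference -4.13 on the log2 scale), and of 33 general adipocyte genes 26 and 0 (median -4.67). On the authors' normalized values 15 of the brown (median -1.91) and 22 of the general adipocyte genes (median -3.05) were lower. Ucp1, used by the rule, was above background on 1 of the 5 arrays. Cidea, whose product enlarges lipid droplets in brown fat, had a log2 signal of 4.30 and 4.75 on the HSLAKO arrays, 5.57 and 4.34 on the DAKO arrays at 7 months and 4.35 on the DAKO array at 12 months, against 9.81 to 13.91 (median 13.47) on Ucp1-high arrays, and was above background on 2 of the 5. The mitochondrial isoforms Cox8b and Cox7a1 were 351-fold and 156-fold lower.
Genes of the general adipocyte list were also low. Given beside them are Fabp3 of the brown adipocyte list, Ces1d of the lipolysis list and Tmem45b, which is in no list. Adipoq, the adiponectin gene, had a log2 signal of 8.27 on DAKO replicate 3 at 7 months and of 4.42 to 5.18 on the other four, against 12.09 to 13.04 on Ucp1-high arrays. Thrsp, a regulator of lipid synthesis, was above background on none of the 5 and at least 217-fold lower. Pparg, the master regulator of adipocytes, had a log2 signal of 5.17 and 5.87 on the HSLAKO arrays, 7.72 and 6.62 on the DAKO arrays at 7 months and 5.59 on the DAKO array at 12 months, against 10.33 to 12.18 on Ucp1-high arrays, and was lower than on any of the 67 other arrays (lowest 8.75). Tmem45b, a membrane protein gene, Ces1d, a carboxylesterase gene, Car3, a carbonic anhydrase gene abundant in fat, and Gpd1, which makes glycerol 3-phosphate, were 273-fold, 249.5-fold, 133-fold and 115-fold lower, Fabp3, a fatty acid carrier gene, 128-fold and Adig, the adipogenin gene, 113-fold. Of the 5 Cdkn2a-high arrays, Cox8b and Adipoq were above background on 3, Car3 on 2, Tmem45b and Adig on 1, and Ces1d and Fabp3 on 4, so that these folds rest partly on signals at background. Of the 33 general adipocyte genes, 18 were also lower than on all 67 other arrays, and of the 25 brown genes 4.

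Most genes of lipolysis were lower as well. Of 16 measured, 9 were lower and 0 higher without overlap (median -3.56 on the log2 scale, or -1.52 on the authors' normalized values). Pnpla2, which encodes ATGL, had a log2 signal of 7.21 and 8.13 on the HSLAKO arrays, 9.08 and 8.68 on the DAKO arrays at 7 months and 8.84 on the DAKO array at 12 months, against 10.02 to 14.19 on Ucp1-high arrays. It was therefore low both where the label says that ATGL was deleted and where it says that only HSL was. Lipe, which encodes HSL, had a log2 signal of 4.48 to 4.77 on Cdkn2a-high arrays and of 5.49 to 10.37 on Ucp1-high arrays, and was above background on 1 of the 5. Against Ucp1-high BAT arrays of the same labelled genotype, the log2 signal of Lipe was 4.48 to 4.57 against 5.58 to 8.47 in HSLAKO, where 2 and 7 arrays were compared, and that of Pnpla2 7.21 to 8.13 against 10.58 to 14.19. In DAKO, where 3 and 11 arrays were compared, it was 4.49 to 4.77 against 5.55 to 9.44 for Lipe and 8.68 to 9.08 against 10.02 to 14.14 for Pnpla2. On BAT arrays labelled DAKO or HSLAKO that fell on neither side, Lipe was at 4.61 to 5.70 and Pnpla2 at 10.06 to 11.48. Lipe was at 4.61 on HSLAKO replicate 4 and 4.74 on DAKO replicate 2 at 12 months. Low Lipe was thus not particular to the Cdkn2a-high arrays. Plin5 and Plin1, coat proteins of the lipid droplet, were 67.9-fold and 29.6-fold lower, and Aqp7, the glycerol channel, 49.1-fold lower, and they were above background on 2, 1 and 1 of the 5 arrays.

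Mitochondrial genes were lower than on Ucp1-high arrays, both in the pathways that feed the respiratory chain and in the chain itself. Of 35 genes of fatty acid oxidation and the TCA cycle 29 were lower without overlap (median -3.13 on the log2 scale), and all 35 had the lower mean. Cpt1b, the muscle-type carnitine palmitoyltransferase that admits fatty acids to mitochondria, had a log2 signal of 5.24 to 6.46 against 8.94 to 12.46 on Ucp1-high arrays. Acaa2, the thiolase that ends each round of oxidation, was 25.6-fold lower, the TCA enzyme gene Idh3a 17.1-fold and the dehydrogenase gene Acadl 15.4-fold. Of 65 genes of the respiratory chain and ATP synthase 24 were lower (median -1.69), and 64 had the lower mean. Uqcrc1 and Uqcrc2, core subunits of complex III, were 7.11-fold and 5.54-fold lower, and the complex I subunits Ndufb3 and Ndufb10 5.66-fold and 5.51-fold lower. The mean log2 signal of the respiratory chain list was 9.87 to 10.09 on Cdkn2a-high arrays and 8.645 to 10.78 on arrays of neither side. Against all other arrays, 12 of the 35 and 1 of the 65 genes were lower without overlap. Skeletal muscle markers, whose cells share some of these genes, differed in the same direction: all 19 had the lower mean (median -5.27), 1 was lower without overlap, and their mean log2 signal was 4.61 to 7.04 on Cdkn2a-high arrays and 5.76 to 12.77 on Ucp1-high arrays. The part of muscle in the mitochondrial values was not tested. Glycolysis and hypoxia genes had no common direction (0 higher and 1 lower of 26, median 0.01), the lower one being the muscle aldolase gene Aldoa, at 3.15-fold. Over all genes 4.86% were lower without overlap.

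**Figure D4:**
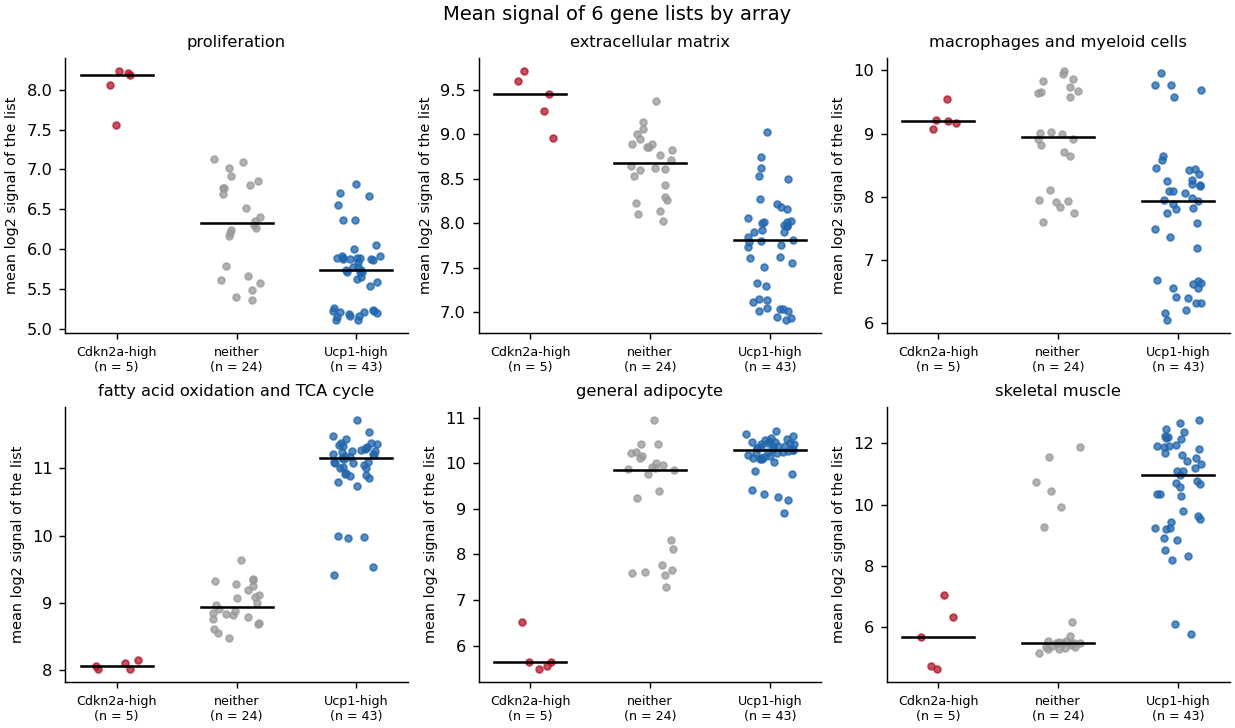
Mean log2 signal of 6 gene lists on each array, for Cdkn2a-high arrays (n = 5), arrays on neither side (n = 24) and Ucp1-high arrays (n = 43), with a line at the median. Proliferation lies between 7.56 and 8.24 on the Cdkn2a-high arrays and fatty acid oxidation with the TCA cycle between 8.01 and 8.15, outside the range of both other sets, while macrophage genes overlap with both.

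Markers of immune cells did not separate the arrays, where 4.58% of all genes were higher and 4.86% lower without overlap. Of 23 macrophage genes 0 were higher or lower without overlap (median 1.65 on the log2 scale), although 20 had the higher mean, and their mean log2 signal of 9.08 to 9.55 on Cdkn2a-high arrays lay inside the 6.05 to 9.95 of Ucp1-high arrays. Adgre1, which encodes an adhesion receptor of macrophages, was at 9.26 to 10.19 on Cdkn2a-high arrays and at 5.14 to 11.08 on Ucp1-high arrays. Of 17 genes of lipid-associated macrophages 1 was lower (median 0.35), Lpl, the lipoprotein lipase gene that adipocytes also use, at 9.25-fold. Of 14 T, NK and B cell genes none was apart (median -0.03), and of 12 neutrophil and mast cell genes none (median 0.56).
Markers of other tissues were mostly not apart, beside the same 4.58% higher and 4.86% lower over all genes. Of 14 mesothelial genes 1 was lower (Cldn15, a claudin gene, 3.48-fold, median of the list 0.12), and the defining marker Wt1 was above background on 0 of the 5 Cdkn2a-high and 0 of the 43 Ucp1-high arrays. Msln, the mesothelin gene, was above background on 3 of the 5 Cdkn2a-high arrays, at a log2 signal of 4.26 to 8.12 over the 5, and on 0 of the 43 Ucp1-high arrays, at 4.19 to 4.62. None of 8 epithelial genes (median -0.10) and none of 4 red blood cell genes (median -0.02) was apart. Of 6 genes of Schwann cells and nerve (median -0.25) only Gap43, a growth cone protein gene, was higher, at a log2 signal of 6.69 to 8.53 against 4.15 to 4.84 on Ucp1-high arrays.

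Whether the Cdkn2a-high arrays labelled DAKO differed from those labelled HSLAKO could be tested, because the rule did not use genotype. With limma on these 5 arrays, 0 of 12265 genes passed an adjusted p under 0.01 with a log2 fold change over 1.5 in size (0%), and 695 had an unadjusted p under 0.05. Pnpla2 differed by 1.20 on the log2 scale (DAKO over HSLAKO, standard error 0.31, adjusted p = 0.904 from limma), with 8.68 to 9.08 on the 3 DAKO arrays and 7.21 to 8.13 on the 2 HSLAKO arrays. Age was not balanced, since both HSLAKO arrays were from 12 months and only 1 DAKO array was. When all 72 arrays entered the fit, so that the spread came from the labelled groups and the remaining arrays too, 16 genes passed, 9 higher and 7 lower in DAKO. In that fit 21 passed between the 12-month arrays alone, where 1 DAKO array stood against 2 HSLAKO arrays and was assumed to vary like the other groups. On simulated data with 3 against 2 arrays, 32% of shifts of 2 and 86% of shifts of 5 on the log2 scale were called. The simulation drew independent noise for each probe and shifted only brighter probes, so these shares do not cover genes near background.

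The 3 labelled groups that held Cdkn2a-high arrays were then compared with the youngest BAT of the same genotype, on all 72 arrays. These groups were chosen because the rule found members in them. The counts therefore do not test age apart from that choice. In DAKO BAT at 7 against 3 months 1 gene was higher and 0 lower (0.00815% of 12265, with 1596 at an unadjusted p under 0.05). It was Amer2, a regulator of WNT signalling, with log2 signals of 4.32, 6.19, 5.98 and 8.84 at 7 months and of 4.28 to 4.47 at 3 months (log2 fold change 1.98, standard error 0.33, adjusted p = 0.00325 from limma). Replicate 1 at 7 months overlapped with the 3-month arrays. The count was 65 without DAKO replicate 1 at 7 months and 41 without replicate 2, both of them Ucp1-high, and 0 without replicate 4 or without 3-month replicate 1, 2, 4 or 5. Leaving out a Ucp1-high array of the older group moves a comparison towards the rule's own contrast. Such counts, here and at 12 months, add no separate support to it.
In DAKO BAT at 12 against 3 months limma called 0 genes (2046 at an unadjusted p under 0.05), and in HSLAKO BAT at 12 against 3 months 0 genes (1609). With a weight for each array in the fit, 416 and 789 genes passed. Leaving out the Ucp1-high replicate 3 of the 12-month group gave 1 gene in DAKO and 114 in HSLAKO, and leaving out HSLAKO replicate 4 gave 15. The change with age in DAKO and in HSLAKO at 12 months differed for 0 genes (193 at an unadjusted p under 0.05 from limma), and for 67 with array weights.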

How the data were processed

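Transcripts of interscapular BAT and perigonadal WAT were hybridised to 72 Illumina beadchips (MouseRef-8 v2.0). The authors deposited unnormalized, linear probe intensities with a detection p-value for each (the rank of the probe among negative control beads), and a second table of intensities that they had normalized. The slides are not given in the sources used here.

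From the deposited raw values, log2 signals were made by neqc (background correction, then quantile normalization; limma 3.58.1, R 4.3.3, statmod 1.5.0). The analysis kept 18083 of 25697 probes, those detected at p under 0.05 on 3 arrays or more. Symbols were updated through Entrez Gene (23978 probes with 1 symbol, 1719 without), and each of 12265 genes was represented by its probe with the highest mean, Cdkn2a by the probe of the rule. Labelled groups were fitted in limma with Benjamini-Hochberg adjustment, and the fits were tested on simulated data. A p-value sets a difference against the spread between arrays of the same fitted group. Arrays that may share a mouse were treated as independent. The number of arrays limits the precision.

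The members, thresholds and the 23 gene lists were chosen with earlier results of these data known. Genes named in the text were the rule and marker genes, those the study names, the 12 highest and 12 lowest of the genes without overlap, up to 4 such genes per list, and the genes called in a test, with others marked as named after their values were seen or given as defining markers of cell types. Alternative settings used the normalized table, skipped background correction or added an offset of 50, and covered a common median, other filters, probes, thresholds and fits, array weights, a replicate block, and leaving out each array. Those for the difference between the age contrasts were chosen after seeing the data. A slide block could not be fitted.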

Additional observations from a re-analysis of the deposited data

Results flagged for a closer look

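Single arrays stood far from the others of their set in 18 of 103 sets of 4 or 5 values examined (a gap over Dixon's limit). Independent normal values would give about 1 in 20, but many of these sets share genes, and many genes were named for their values on these arrays. The 18 therefore do not measure an excess over chance. Of the 18, the 2 named last concern the genes of the rule in labelled groups that the rule split, and add nothing to it. DAKO replicate 3 at 7 months was the one apart in 10 of them. On this array the log2 signals of adipocyte genes were above those of the other 4 Cdkn2a-high arrays: Ucp1 at 4.81 (others up to 4.30), Tmem45b at 5.98 (4.43), Adipoq at 8.27 (5.18), Gpd1 at 6.10 (4.92), Adig at 5.54 (4.37), Plin1 at 4.95 (4.41), Cpt1b at 6.46 (5.54) and the mean of the general adipocyte list at 6.53 (5.65). Crabp1, at 7.16, and Thbs2, at 11.38, were lower there than on the other four (from 10.34 and 12.44). Ucp1, Tmem45b, Adig and Plin1 were each above background on 1 of the 5 arrays, so their gaps lie near background.

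The other sets concerned different arrays. DAKO replicate 4 at 7 months had Ccn4 at 11.68 (others up to 10.43) and the lowest mean of the p53 and RB list, 7.51 (others from 7.71). HSLAKO replicate 2 at 12 months had the lowest proliferation mean, 7.56 (others from 8.06), and the highest means of the macrophage list, 9.55 (others up to 9.21), and of the T, NK and B cell list, 5.55 (others up to 5.12). HSLAKO replicate 1 had Aldoa at 10.86 (others from 11.71). Within the labelled groups, Cdkn2a at 9.30 on DAKO replicate 1 at 12 months stood apart from 4.26 to 4.57 on the other three, and Ucp1 at 12.72 on HSLAKO replicate 3 at 12 months from 4.26 to 5.17.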

How the results depend on the processing

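The 5 Cdkn2a-high arrays were the same under each way of scaling. The number of genes without overlap between Cdkn2a-high and Ucp1-high arrays, 1158, was 500 (201 higher, 299 lower) on the authors' normalized values and 659 (279 higher, 380 lower) with no background correction. It was 1182 to 1258 with 1 Cdkn2a-high array left out, and within 1.5 times of 1158 under the other alternatives. Of 144 medians (23 lists and all genes under 6 settings), 99 moved by less than the spread of the list means and 45 further. The sign changed in 7, all of medians of at most 0.02 in size.

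The call in DAKO BAT at 7 against 3 months was lost (0 genes) on the normalized table, without background correction, with an offset of 50, a common median, array weights or only the compared groups, and 11 genes passed an adjusted p under 0.05 with no fold minimum. With 1 array left out the count ran from 0 to 65. In DAKO BAT at 12 against 3 months it was 416 with array weights and 0 to 1 with 1 array left out, and in HSLAKO BAT 789 with array weights, 4 at an adjusted p under 0.05 and 0 to 114 with 1 array left out. For the difference between these contrasts it was 67 with array weights and 0 with any array left out. Between DAKO and HSLAKO Cdkn2a-high arrays the count was 16 with all 72 arrays in the fit, 21 for the 12-month arrays in that fit and 0 with any array left out. The causes were not tested.

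With the replicate number as a block, 0 genes passed in each of the age comparisons. Same-numbered arrays correlated from -0.60 to 0.48 in their deviations, so the numbers were not used as pairs. Signals near background limit low genes to bounds.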
